A study of Mus musculus with 12 samples.

Results

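Thy-1+ cells of days 6 and 9 of reprogramming, the libraries D6T+ and D9T+, were compared gene by gene. A gene was kept when its FPKM (fragment counts scaled by transcript length and library size) was at least 1 in either library, which held for 12090 of 24098 genes in the table (50.2%). Of these, 11127 reached 1 FPKM in both libraries, 626 did so in D9T+ only and 337 in D6T+ only. Differences are given as log2(FPKM + 1) of D9T+ minus that of D6T+, a scale that understates the change of low genes.

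The cells were mouse embryonic fibroblasts (MEFs) of E13.5 embryos with an IRES-EGFP reporter behind Oct4 (Pou5f1), infected with separate pMXs retroviruses for Sox2, Klf4, Oct4 and c-Myc (OSKM). They were grown without feeder cells in a serum-replacement medium that held LIF, ascorbic acid, bFGF and the GSK3 inhibitor CHIR99021, and were sorted with an antibody to CD90.2, the surface protein Thy-1. The sort gave Thy-1+ (D6T+, D9T+) and Thy-1- (D6T-, D9T-) cells on each day. The other libraries, used here only to place levels, were unsorted cells of days 0 and 3 (D0, D3), SSEA-1 sorted cells of days 12 and 16 (D12S-, D12S+, D16S-, D16S+), induced pluripotent stem cells (iPSCs) and the mouse embryonic stem cell line ESD3 (mESCs). There was a single library per condition, without replicates, and p-values were therefore not computed. Retroviral coding reads count towards the 4 factor genes. In bulk RNA, fewer cells of a type and less RNA per cell cannot be told apart.

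Thy-1 is a surface glycoprotein of fibroblasts and is lost from most cells that go on to pluripotency. Cells that keep it largely retain fibroblast genes. Immediate early genes such as Fos and the Nr4a receptors are transcribed within minutes of a growth factor or stress signal without new protein synthesis, and acute phase proteins are made under NF-kB and C/EBP factors.

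The sorting marker met the labels. Thy1 (chromosome 9, 43851467 to 43856662, plus strand, mm9) had 477 FPKM on day 6 and 491 FPKM on day 9 in Thy-1+ cells, against 3.24 and 3.72 FPKM in Thy-1- cells. Fibroblast markers were present in both Thy-1+ libraries. Col1a2, a chain of type I collagen, was at 471 FPKM and 458 FPKM, and Pdgfra, a receptor of fibroblasts and their precursors, at 13.6 FPKM and 13.3 FPKM. The total FPKM was 539242 in D6T+ and 557447 in D9T+, and the depth of D9T+ estimated from the steps of low values was 0.768 times that of D6T+.

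From day 6 to day 9, 698 genes rose at least 2-fold (5.77% of kept genes) and 195 fell at least 2-fold (1.61%), while 11197 (92.6%) lay within 2-fold. Of the genes past 2-fold, 78.2% were higher in D9T+. The median difference over kept genes was -0.04, with a 5th percentile of -0.71 and a 95th percentile of 1.09. Of the risen genes, 231 were under 1 FPKM in D6T+, and of the fallen genes 32 were under 1 FPKM in D9T+. The table lists 8 of the risen genes at 0 in D6T+ and 8 of the fallen genes at 0 in D9T+, and 5 and 8 of the risen and fallen genes are small RNAs by symbol. The intervals that cuffdiff gave to each FPKM were wide. Over the 5910 genes of at least 10 FPKM in both libraries, the median half-width was 99.5% of the FPKM in D6T+ and 99.9% in D9T+, and 0 kept genes had intervals that lay apart.

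**Figure D1:**
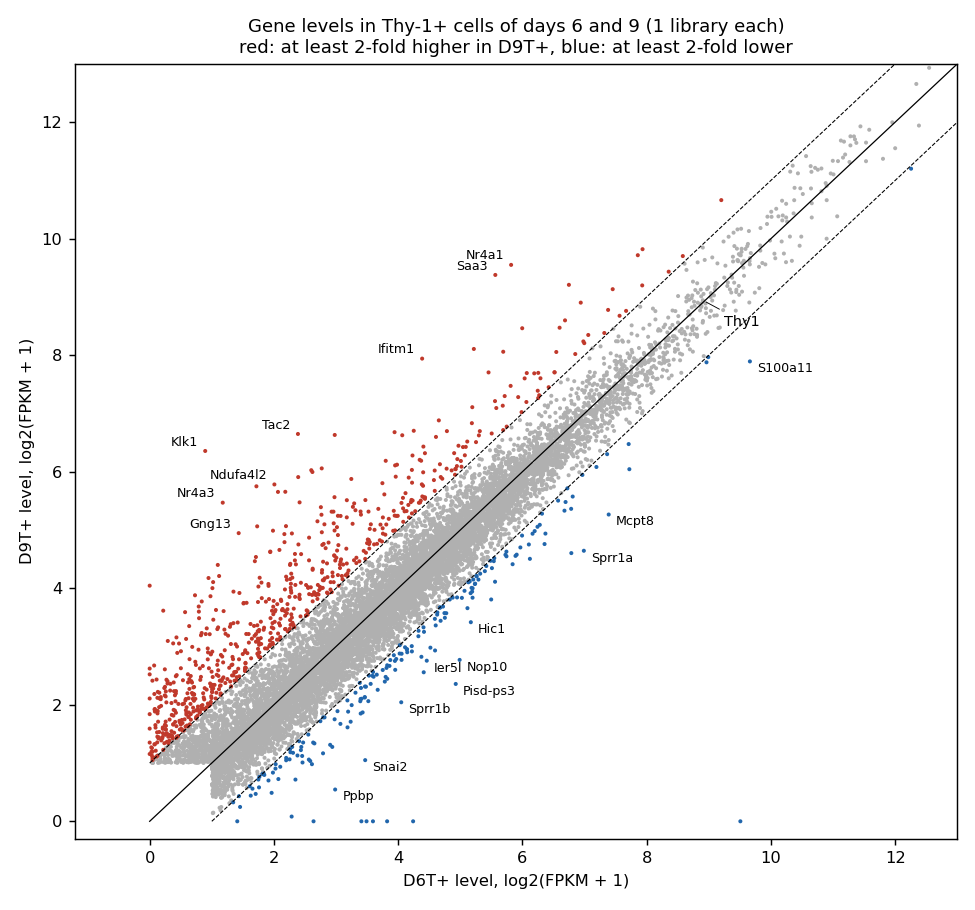
Level of each kept gene in D9T+ (vertical) against D6T+ (horizontal), both as log2(FPKM + 1), with the line of equality (solid) and the 2-fold lines (dashed). The 698 red points lie above the upper dashed line, the 195 blue points below the lower one, and Thy1 lies on the line of equality.

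The largest rises came from genes of several kinds. Klk1 (chromosome 7, 51480807 to 51484987, plus strand), a serine protease that releases kinins, went from 0.86 to 80.9 FPKM, a difference of 5.46. Its cuffdiff interval ran from 0 to 2.96 FPKM in D6T+ and from 1.11 to 161 FPKM in D9T+. Nr4a3 (chromosome 4, 48058025 to 48099319, plus strand), an orphan nuclear receptor, went from 1.26 to 43.3 FPKM (4.29). Tac2, which encodes the precursor of neurokinin B, went from 4.23 to 99.2 FPKM (4.26), and Hp, the haemoglobin-binding acute phase protein haptoglobin, from 2.29 to 52.8 FPKM (4.03). Then came Saa3, a serum amyloid A protein (46.3 to 663 FPKM, 3.81), and Ndufa4l2, a paralog of a respiratory chain subunit (3.02 to 54.0 FPKM, 3.77). Nr4a1, another receptor of the family, rose from 55.4 to 748 FPKM (3.73) and was the most abundant of the group in D9T+.

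The remaining genes of the 12 largest rises were Igfbp2, a binding protein of insulin-like growth factors (6.88 to 98.0 FPKM, 3.65), and Slc38a5, a transporter of neutral amino acids (3.18 to 49.3 FPKM, 3.59). With them were Ifitm1, an interferon-induced membrane protein (19.9 to 245 FPKM, 3.56), Apoe, a lipid carrier (4.24 to 59.0 FPKM, 3.52), and Gng13, a G protein gamma subunit (1.699 to 29.8 FPKM, 3.51). These 12 genes differed in where else they were high. Nr4a1, Nr4a3, Hp and Saa3 had their highest level of all 12 libraries in D9T+. Klk1, Ifitm1 and Gng13 were highest in D12S+, at 742, 328 and 131 FPKM, and Tac2 and Slc38a5 in D9T-, at 145 and 99.7 FPKM. Igfbp2 and Apoe reached 841 and 884 FPKM in mESCs.

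The falls were smaller. Pisd-ps3, a pseudogene of phosphatidylserine decarboxylase, went from 29.4 to 4.12 FPKM, a difference of -2.57. Ppbp, a platelet chemokine, went from 6.92 to 0.46 FPKM (-2.44). Snai2 (chromosome 16, 14705945 to 14709488, plus strand), a zinc finger repressor of mesenchymal cells, went from 10.1 to 1.07 FPKM (-2.42). In D0 and D3 Snai2 was at 10.5 and 5.61 FPKM, and in each library other than D0, D3, D6T+ and D9T+ it was below 1 FPKM. Sprr1a and Sprr1b, small proteins of the cornified envelope of the epidermis, went from 126 to 24.0 FPKM (-2.34) and from 15.5 to 3.12 FPKM (-2.01).

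Nop10, a component of H/ACA ribonucleoproteins, went from 30.7 to 5.82 FPKM (-2.22), its lowest level of all 12 libraries. Mcpt8, a granule protease of basophils and mast cells, went from 166 to 37.4 FPKM (-2.12) after 1201 FPKM in D0. S100a11, a calcium-binding protein, was the most abundant of the falls at 808 and 237 FPKM (-1.77). Hic1, a zinc finger repressor (35.0 to 9.68 FPKM, -1.75), and Ier5l (21.0 to 5.76 FPKM, -1.703) were at their highest in D0.

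**Figure D2:**
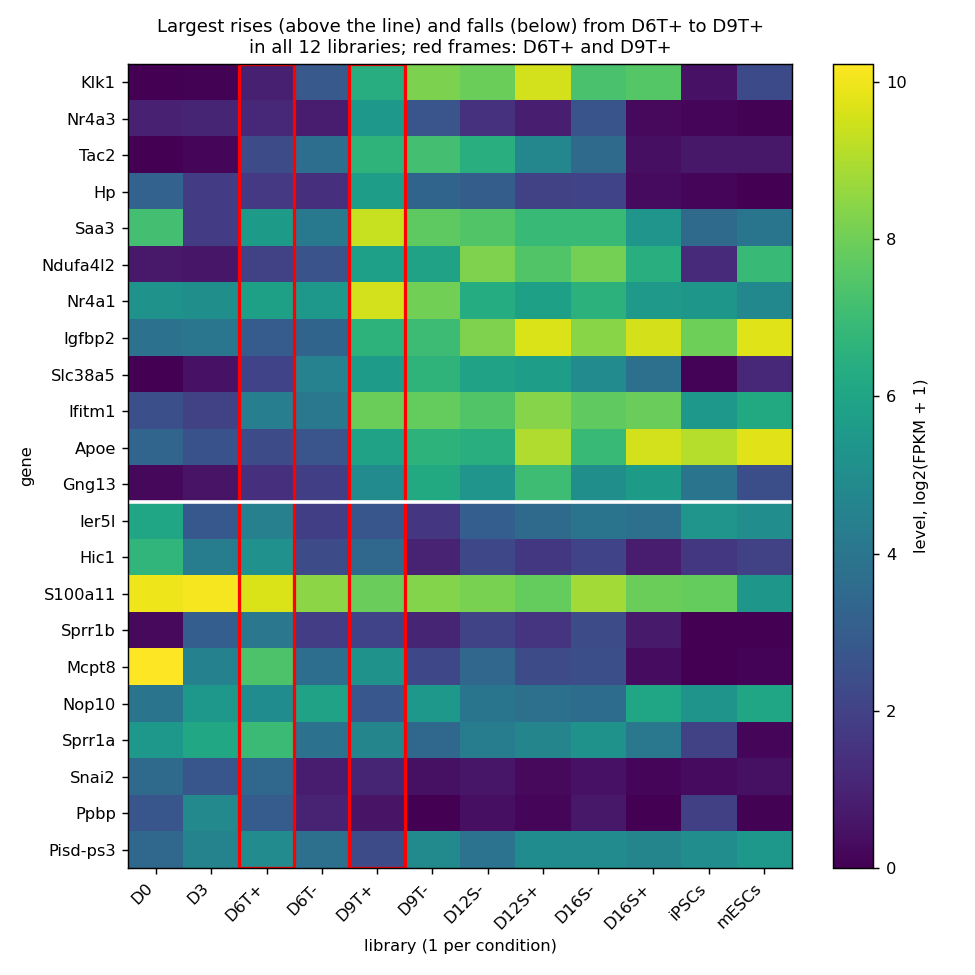
Level as log2(FPKM + 1) (colour) of the 12 largest rises and of 10 of the 12 largest falls from D6T+ to D9T+ in each of the 12 libraries, with D6T+ and D9T+ framed in red. Nr4a1 and Saa3 are brightest in D9T+, whereas Igfbp2 and Apoe are brighter in D12S+, D16S+, iPSCs and mESCs than in D9T+.

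Immediate early and AP-1 genes were among the groups that rose most. Of 23 listed genes, all kept, 15 rose at least 2-fold and 0 fell, with a median difference of 1.25 (5.77% of all kept genes rose). The median over all kept genes was -0.04. Besides Nr4a1, the receptor Nr4a2 went from 3.50 to 26.7 FPKM (2.62). Fosb, an AP-1 subunit, went from 8.48 to 57.7 FPKM (2.63), and Fos, its better known relative, from 74.9 to 167 FPKM (1.14). The zinc finger factors Egr2 and Egr3 went from 2.27 to 22.2 FPKM (2.83) and from 2.96 to 30.7 FPKM (3.00). Atf3 (chromosome 1, 192994175 to 193007219, minus strand), a stress-induced repressor, went from 4.32 to 43.4 FPKM (3.06). Jun at 69.2 and 88.1 FPKM (0.34) and Fosl1 at 64.7 and 94.2 FPKM (0.54) stayed within 2-fold.

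In the other 10 libraries Nr4a3 ranged from 0.05 FPKM in mESCs to 5.56 FPKM in D9T-, below its 43.3 FPKM in D9T+. Nr4a2 was at most 9.46 FPKM elsewhere, and Fosb at most 32.2 FPKM. Of the 12 libraries, D9T+ held the highest level of these receptors and of Fosb, Egr2, Egr3 and Lif. This did not hold for the whole immediate early list. Fos was highest in D12S+, Atf3 in D9T- (45.2 FPKM) and Jun in D0.

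**Figure D3:**
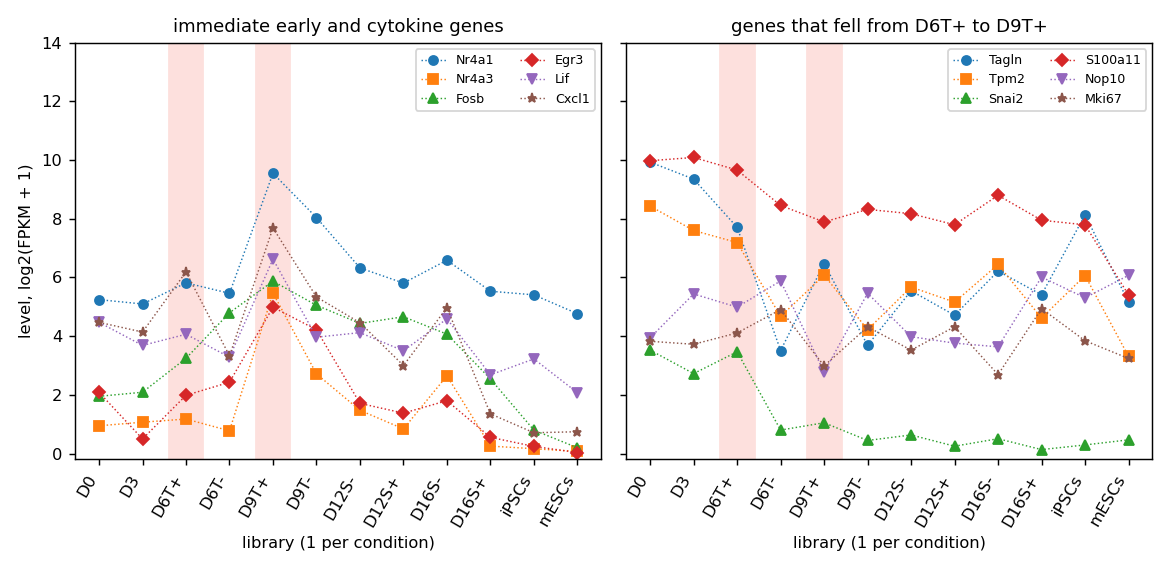
Level as log2(FPKM + 1) of 6 immediate early and cytokine genes (left) and of 6 genes that fell (right) in the 12 libraries, joined by dotted lines only to guide the eye, with D6T+ and D9T+ shaded. All 6 genes on the left, chosen as genes highest in D9T+, peak there, and on the right Snai2 and Nop10 drop from D6T+ to D9T+.

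Negative feedback on MAP kinases, which many of these signals induce, moved less as a group. Of 21 listed genes, 4 rose and 1 fell, with a median of 0.64. The phosphatase genes Dusp5 (18.03 to 103 FPKM, 2.45), Dusp10 (8.01 to 20.5 FPKM, 1.25) and Dusp8 (2.32 to 6.34 FPKM, 1.14) rose, as did Errfi1, an inhibitor of the EGF receptor (19.3 to 72.7 FPKM, 1.86). Dusp6 was at 43.3 and 41.8 FPKM (-0.05). Etv4, an ETS factor downstream of FGF signals, fell from 26.3 to 10.9 FPKM (-1.202). The EGF receptor ligands rose, Areg from 17.6 to 37.96 FPKM (1.06) and Ereg from 16.9 to 42.1 FPKM (1.27).

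RefSeq promoter windows (250 bases before to 50 bases after a start site) were available for 17 of the 23 immediate early genes. The CRE half-site TGACGT was found on either strand in 4 of the 17 genes (23.5%). A gene counted when any of its windows matched. The half-site was in 13.5% of the kept genes with a window and in 13.1% of the risen genes of the whole table. Counted per window, it was in 7.51% of all 32851 windows. Among the same 17 genes the kB motif of NF-kB was in 6 (35.3%), against 6.44% of kept genes. The serum response element (SRE) was in 2 (11.8%), against 1.58% of kept genes. The windows of Nr4a3 (GRCm38.p6, chr4:48045055-48045354, plus strand) and Atf3 (GRCm38.p6, chr1:191183284-191183583, minus strand) are shown 5′ to 3′ because both genes rose over 8-fold, with the half-site, or its complement read from the other strand, in capitals. The matches start at -231, -205 and -147 from the start site in Nr4a3 and at -8 in Atf3. A match is a description of the letters and not of a bound site.
Nr4a3: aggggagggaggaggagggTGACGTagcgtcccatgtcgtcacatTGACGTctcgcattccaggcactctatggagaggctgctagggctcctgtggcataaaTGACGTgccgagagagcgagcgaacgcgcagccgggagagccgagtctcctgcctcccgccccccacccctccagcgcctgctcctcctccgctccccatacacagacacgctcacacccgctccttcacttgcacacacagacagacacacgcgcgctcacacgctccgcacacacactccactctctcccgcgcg
Atf3: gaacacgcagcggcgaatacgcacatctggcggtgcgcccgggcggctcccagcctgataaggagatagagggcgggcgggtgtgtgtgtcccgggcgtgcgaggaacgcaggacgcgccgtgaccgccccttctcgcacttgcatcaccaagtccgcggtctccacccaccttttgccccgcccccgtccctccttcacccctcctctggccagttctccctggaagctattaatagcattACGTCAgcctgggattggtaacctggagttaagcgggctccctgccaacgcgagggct

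Acute phase and complement genes rose together. Of 19 listed genes 18 were in the table and 15 were kept, 14 of them at 1 FPKM or more already in D6T+. Among the kept genes 11 rose and 0 fell, with a median of 1.38. Besides Hp, Cfb, a protease of the alternative complement pathway, went from 3.54 to 49.4 FPKM (3.47). Lbp, which carries lipopolysaccharide to its receptor, went from 5.82 to 65.5 FPKM (3.29), and C3, the central complement component, from 6.86 to 46.3 FPKM (2.59). C4b went from 0.34 to 4.62 FPKM (2.07), and Serping1, the inhibitor of the first complement component, from 35.6 to 137 FPKM (1.91). Hp, Lbp, Cfb and C3 were higher in D9T+ than in any other library.

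Among 29 kept chemokine and cytokine genes of 36, 12 rose and 1 fell, with a median of 0.58. Saa3 led them. The neutrophil chemokine genes Cxcl1 and Cxcl2 went from 72.0 to 205 FPKM (1.498) and from 2.23 to 21.1 FPKM (2.77). Lif, a cytokine of the interleukin-6 family that is also an ingredient of the medium, went from 15.7 to 97.7 FPKM (2.56). Il6 itself went from 4.06 to 23.1 FPKM (2.25), Csf3, which drives granulocyte production, from 2.77 to 15.5 FPKM (2.13), and Lcn2, an iron-trapping lipocalin, from 1.10 to 11.4 FPKM (2.56). Ccl2, the monocyte chemokine, was high in both libraries, at 704 and 786 FPKM (0.16).

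The NF-kB pathway list, which includes its induced inhibitors, had a median of 0.43 over 25 kept genes of 27. Of these 4 rose and 0 fell. Tnfaip3, which encodes the inhibitor A20, went from 5.50 to 34.5 FPKM (2.45), Nfkbia, which encodes the inhibitor IkB-alpha, from 84.7 to 174 FPKM (1.03), and Nfkbiz, which encodes the nuclear regulator IkB-zeta, from 32.6 to 76.8 FPKM (1.21). Irak3, an inhibitor of Toll-like receptor signalling, went from 9.03 to 21.99 FPKM (1.196).

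Windows of 2 genes of these groups are shown for their motif matches. Saa3 (GRCm38.p6, chr7:46715627-46715926, minus strand) holds the CEBP motif TTGCNNAA at -99 to -92 and an interferon-stimulated response element (ISRE) at -125 to -116, and Cxcl1 (GRCm38.p6, chr5:90890995-90891294, plus strand) holds 2 overlapping kB matches at -71 to -61. Matches are in capitals and were sought on both strands. Per gene with a window, the CEBP motif was in 5 of 9 complement and acute phase genes (55.6%), against 9.78% of kept genes. The kB motif was in 6 of 19 chemokine and cytokine genes (31.6%), against 6.44% of kept genes. The AP-1 motif TGANTCA was in 0 of the 17 immediate early genes and 6 of the 19 (31.6%), against 6.24% of kept genes. Counted per window, CEBP, kB and AP-1 were in 10.8%, 4.51% and 7.81% of all windows. Over the whole table the CEBP motif was in 13.5% of risen genes with a window and 15.9% of fallen genes. The AP-1 motif was in 9.09% and 13%, and the kB motif in 11.2% and 5.8%.
Saa3: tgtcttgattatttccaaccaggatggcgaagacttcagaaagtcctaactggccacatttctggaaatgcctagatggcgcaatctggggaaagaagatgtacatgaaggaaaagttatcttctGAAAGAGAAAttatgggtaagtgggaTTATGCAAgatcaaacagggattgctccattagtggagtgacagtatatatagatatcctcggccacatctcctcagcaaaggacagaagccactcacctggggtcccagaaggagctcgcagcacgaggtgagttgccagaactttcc
Cxcl1: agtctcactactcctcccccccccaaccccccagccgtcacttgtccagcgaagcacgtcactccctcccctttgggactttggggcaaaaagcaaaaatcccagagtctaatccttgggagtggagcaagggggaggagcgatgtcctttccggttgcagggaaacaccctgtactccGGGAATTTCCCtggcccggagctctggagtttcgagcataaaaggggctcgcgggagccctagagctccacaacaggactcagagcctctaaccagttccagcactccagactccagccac

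Markers of leukocytes were examined beside these groups. Of 20 leukocyte markers only 4 reached 1 FPKM in either library (median difference 0.57), and their summed level over all 20 was 30.7 FPKM in D6T+ and 51.9 FPKM in D9T+. The defining gene Ptprc, the pan-leukocyte antigen CD45, was at 0.09 and 0.04 FPKM, and Tyrobp, an adaptor of myeloid cells, at 0.62 and 0.11 FPKM. The 4 included Cd68, a lysosomal protein of macrophages, at 16.4 and 18.04 FPKM (0.13), and Laptm5, another lysosomal protein, which went from 3.78 to 20.1 FPKM (2.14). Laptm5 was at 33.2 FPKM in D9T- and 52.1 FPKM in mESCs. In D9T- the summed level was 68.7 FPKM.

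Interferon-induced genes rose less steeply but nearly all in one direction. Of 34 kept antiviral genes of 35, 33 were higher in D9T+ and 1 lower, 13 rose at least 2-fold and 0 fell, and the median was 0.85. Isg15, a ubiquitin-like modifier, went from 66.1 to 206 FPKM (1.62), and Bst2, which tethers virus particles to the cell surface, from 174 to 560 FPKM (1.68). The nucleic acid sensor gene Oas2 went from 7.16 to 36.8 FPKM (2.21), Rsad2 (viperin) from 1.14 to 5.76 FPKM (1.66), and Ifi27l2a from 2.32 to 32.4 FPKM (3.33). These levels were not the peak of the series for Ifi27l2a and Bst2, which reached 159 and 1005 FPKM in D16S-. Isg15 was highest in D0. The summed level of the 35 genes was 1886 FPKM in D0, 143 FPKM in D3, 666 FPKM in D6T+ and 1592 FPKM in D9T+.

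GTPases induced by interferon-gamma rose as well. Of 17 genes 16 were kept, 5 rose and 0 fell (median 0.85). Igtp went from 55.1 to 177 FPKM (1.66), Gbp3 from 20.1 to 53.1 FPKM (1.36) and Tgtp1 from 0.66 to 13.7 FPKM (3.15), while Gbp2 was at 44.2 and 65.3 FPKM (0.55). All 20 genes of MHC class I and antigen processing were kept, and 8 rose and 0 fell (median 0.82). The class I genes H2-K1, H2-T23 and H2-Q4 went from 95.8 to 354 FPKM (1.87), from 26.5 to 103 FPKM (1.91) and from 20.2 to 85.2 FPKM (2.03). The immunoproteasome subunits Psmb8 and Psmb9 went from 46.8 to 135 FPKM (1.51) and from 20.1 to 62.5 FPKM (1.59), and B2m, the light chain of class I, was at 281 and 431 FPKM (0.62). Class I genes and the Tgtp, Oas and Gbp families have near-identical copies, and reads with more than 1 locus had been removed, so their levels are uncertain.

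The window of Isg15 (GRCm38.p6, chr4:156200769-156201068, minus strand) is shown because it holds 3 overlapping ISRE matches at -78 to -57, in capitals. The ISRE was in 12 of 24 antiviral genes with a window (50%) and in 3.59% of the 9108 kept genes with a window. Among chemokine and cytokine genes it was in 3 of 19 (15.8%). Over the whole table it was in 6.55% of risen genes with a window and in 0 of 138 fallen genes. Counted per window, it was in 3.44% of all windows.
Isg15: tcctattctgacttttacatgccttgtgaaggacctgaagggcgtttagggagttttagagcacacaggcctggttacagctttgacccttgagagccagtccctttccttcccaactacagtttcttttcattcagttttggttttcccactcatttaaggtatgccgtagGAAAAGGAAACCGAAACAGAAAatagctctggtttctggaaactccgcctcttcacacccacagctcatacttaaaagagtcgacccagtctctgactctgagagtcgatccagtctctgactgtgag

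**Figure D4:**
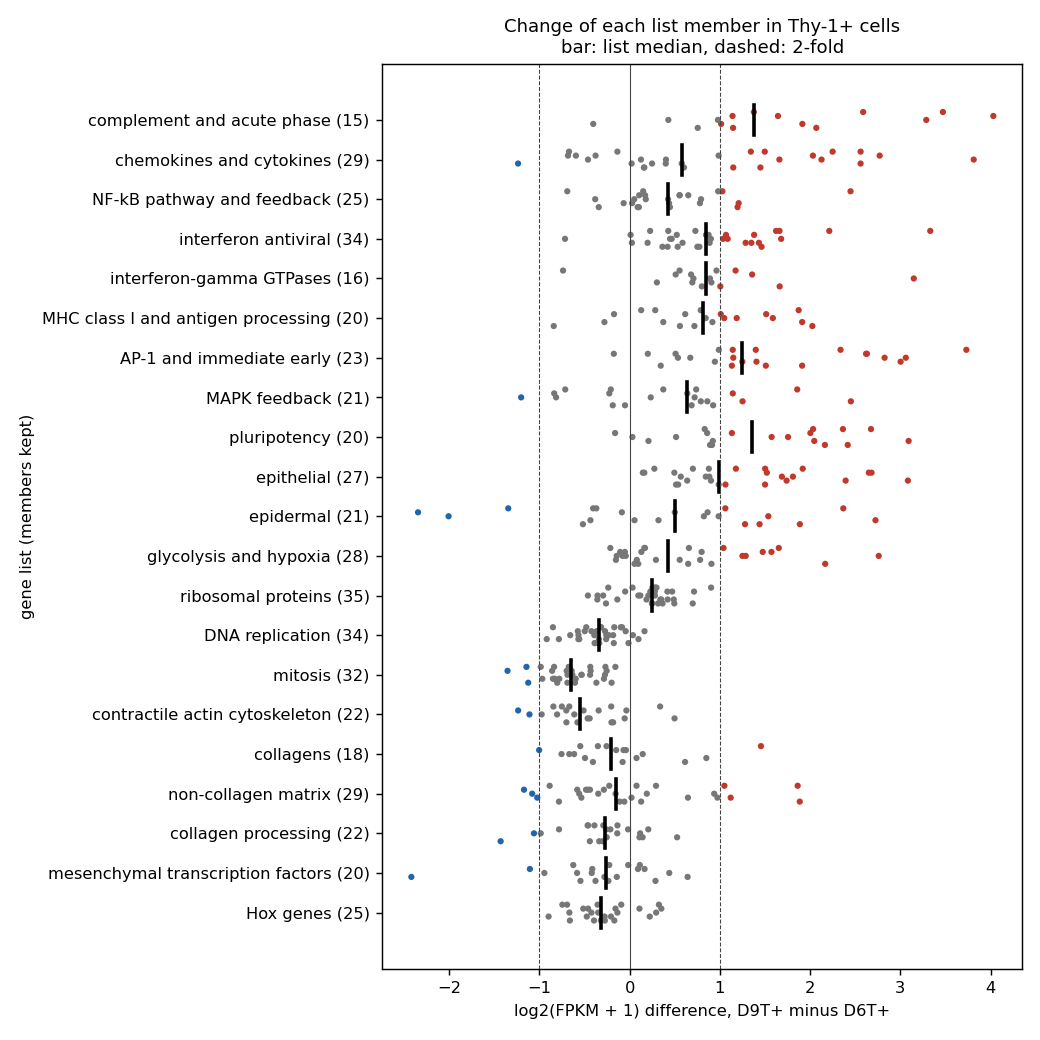
Log2(FPKM + 1) difference between D9T+ and D6T+ (horizontal) of each kept member of 21 gene lists (rows, number of members in brackets), with the median as a bar and the 2-fold lines dashed. The complement, immediate early and pluripotency rows have medians above the 2-fold line, whereas all 32 points of the mitosis row lie below 0.

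The 4 reprogramming factors were all higher on day 9. Pou5f1 went from 587 to 1617 FPKM (1.46), Klf4 from 242 to 586 FPKM (1.27) and Myc from 202 to 432 FPKM (1.09), while Sox2 was at 181 and 301 FPKM (0.73). In D0 they were at 1.99, 11.7, 27.3 and 1.21 FPKM. Retroviral and endogenous transcripts were not separated in these values.

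Pluripotency genes appeared at low levels. Of 30 listed genes 20 were kept, of which 10 reached 1 FPKM only in D9T+, so that the filter itself fixes their direction. Nanog went from 0.30 to 7.30 FPKM (2.67), Gdf3, a TGF-beta ligand of pluripotent cells, from 1.17 to 17.5 FPKM (3.09), and Tdh, threonine dehydrogenase, from 8.79 to 42.9 FPKM (2.16). Dppa5a went from 1.28 to 11.2 FPKM (2.42) and the zinc finger factor Sall4 from 0.66 to 5.67 FPKM (2.00). In iPSCs the same 5 genes were at 143, 66.8, 419, 2441 and 140 FPKM. Their summed level over the 30 genes was 52.5 FPKM in D6T+ and 182 FPKM in D9T+, and 419 FPKM in D9T- and 5505 FPKM in iPSCs. In the kept genes 11 rose, 0 fell and the median was 1.35.

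Epithelial genes followed the same course. Of 33 listed genes 27 were kept, 12 of them through D9T+ only. The 27 kept genes were higher in D9T+, as the filter fixes for those 12, 13 rose at least 2-fold and the median was 0.99. Cdh1 (E-cadherin) went from 2.27 to 8.27 FPKM (1.502), Epcam from 2.84 to 23.6 FPKM (2.68), the tight junction gene Cldn4 from 1.03 to 16.2 FPKM (3.08), and Spint1, an inhibitor of membrane proteases, from 3.89 to 29.7 FPKM (2.65). D9T- was above D9T+ for each of these 4, at 25.8, 55.2, 49.3 and 50.9 FPKM.

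Epidermal genes were split. Of 21 kept genes of 31, 7 rose and 3 fell, with a median of 0.50. Lgals7, a lectin of stratified epithelia, went from 50.6 to 265 FPKM (2.37), Krt17, a stress keratin, from 0.35 to 7.91 FPKM (2.72), and Fgfbp1, a carrier of FGFs, from 20.6 to 78.7 FPKM (1.89). The fallen genes were Sprr1a, Sprr1b and Krtdap, a protein of differentiating keratinocytes, which went from 101 to 39.2 FPKM (-1.34). The keratin gene Krt14 rose from 4.82 to 11.2 FPKM (1.06), while Krt5 at 0.09 and 0.19 FPKM and Krt6a at 2.54 and 4.00 FPKM were low in both libraries.

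Genes of hypoxia and glycolysis had a median of 0.42, and 8 of 28 rose and 0 fell. The glucose transporter Slc2a1 went from 46.1 to 147 FPKM (1.65), the lactate transporter Slc16a3 from 7.41 to 36.8 FPKM (2.17), Aldoc from 3.49 to 29.5 FPKM (2.76), and Vegfa, the angiogenic factor, from 30.3 to 86.1 FPKM (1.48). Glycolytic enzymes of high level moved little. Ldha was at 704 and 792 FPKM (0.17) and Pgk1 at 92.1 and 79.3 FPKM (-0.21). In the list of unfolded protein and ATF4 responses, Chac1 (5.75 to 40.9 FPKM, 2.64) and Trib3 (3.52 to 14.8 FPKM, 1.802) were the 2 of 23 genes that rose, with a median of 0.49. Of 22 kept NRF2 targets 2 rose (median 0.34), the glutathione transferase Gsta3 (3.80 to 16.8 FPKM, 1.89) and the cystine carrier Slc7a11 (4.86 to 15.2 FPKM, 1.47). Hmox1 was at 531 and 817 FPKM (0.62).

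Ribosomal protein genes, which are abundant in every cell, had a median of 0.25 over 35 genes, of which 27 were higher, 8 lower and 0 past 2-fold. Oxidative phosphorylation genes had a median of -0.12 with 0 of 32 past 2-fold, although Cox5a was at 134 and 67.8 FPKM (-0.97). Cholesterol synthesis had a median of -0.28, and 1 of 22 kept genes fell, Msmo1, a sterol oxidase (25.9 to 10.3 FPKM, -1.26).

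Genes of the cell cycle moved down. All 32 genes of mitosis were lower in D9T+, 3 of them past 2-fold (1.61% of all kept genes fell), and the median was -0.65. Mki67, the proliferation antigen Ki-67, went from 16.3 to 6.93 FPKM (-1.12) and Ccna2, cyclin A2, from 14.5 to 5.06 FPKM (-1.35). Ccnb1 at 11.4 and 5.27 FPKM (-0.98) and Plk1 at 48.4 and 26.8 FPKM (-0.83) stayed within 2-fold. Of 34 kept genes of DNA replication 31 were lower and 0 past 2-fold, with a median of -0.34. Mcm2, a subunit of the replicative helicase, was at 50.6 and 40.5 FPKM (-0.32), and Pcna, the polymerase clamp, at 68.2 and 70.0 FPKM (0.04). D9T+ was lower in Ki-67 than D9T- (18.9 FPKM), and D16S- alone was lower still at 5.45 FPKM.

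Inhibitors of the cell cycle did not move as a group. Over 26 genes of CDK inhibitors and p53 targets the median was -0.10, with 1 rise and 1 fall. The rise was Btg2, an antiproliferative gene (64.5 to 193 FPKM, 1.57), and the fall Ccng1, cyclin G1 (109 to 40.1 FPKM, -1.42). Cdkn1a (p21) was at 658 and 666 FPKM (0.02), Cdkn2a, the Ink4a/Arf gene, at 195 and 299 FPKM (0.61) and Cdkn2b at 60.7 and 33.9 FPKM (-0.82).

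Contractile and actin-binding genes, which mark activated fibroblasts, were lower in 20 of 22 cases, with a median of -0.54 and 2 falls past 2-fold. Tagln (chromosome 9, 45737711 to 45744141, minus strand), an actin-binding protein of smooth muscle, went from 208 to 87.9 FPKM (-1.24), and Tpm2, a tropomyosin, from 145 to 66.7 FPKM (-1.11). Acta2, smooth muscle actin, was at 166 and 92.2 FPKM (-0.84), and Cnn1, calponin, at 7.86 and 3.51 FPKM (-0.97). Each of these 4 had its highest level in D0 or D3, at 974, 344, 675 and 53.7 FPKM. Myl9, a regulatory myosin light chain, was at 76.1 and 50.6 FPKM (-0.58). Its window (GRCm38.p6, chr2:156775214-156775513, plus strand) is shown as an example of the SRE, in capitals at -161 to -152. The SRE was in 4 of 19 contractile genes with a window (21.1%), against 1.58% of kept genes. The kB motif was in as many of the 19, against 6.44% of kept genes. Counted per window, the SRE was in 1.63% of all windows.
Myl9: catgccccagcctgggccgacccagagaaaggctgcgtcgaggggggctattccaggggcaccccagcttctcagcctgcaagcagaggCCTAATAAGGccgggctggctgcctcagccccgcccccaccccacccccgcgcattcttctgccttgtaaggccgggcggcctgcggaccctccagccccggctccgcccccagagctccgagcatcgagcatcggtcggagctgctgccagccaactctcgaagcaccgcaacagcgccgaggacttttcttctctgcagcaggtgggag

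The extracellular matrix changed little by comparison. Of 18 kept collagen genes of 20, 1 rose and 1 fell, with a median of -0.20. Col3a1 was at 690 and 434 FPKM (-0.67) and Col1a1 at 960 and 752 FPKM (-0.35), within 2-fold. Col15a1, a collagen of basement membrane zones, went from 4.86 to 15.1 FPKM (1.46), and Col7a1, the anchoring fibril collagen, from 15.3 to 7.13 FPKM (-1.003). Among 22 genes of collagen processing 2 fell and 0 rose (median -0.28), the propeptide protease Adamts14 (56.3 to 20.3 FPKM, -1.43) and the enhancer of such proteases Pcolce2 (37.4 to 17.4 FPKM, -1.06). Serpinh1, the collagen chaperone, was at 894 and 731 FPKM (-0.29).

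Of 29 kept non-collagen matrix genes 4 rose and 3 fell, with a median of -0.16. The rises included 3 targets of mechanical and serum signals, Cyr61 (243 to 901 FPKM, 1.89), Ctgf (9.56 to 37.4 FPKM, 1.86) and Thbs1, thrombospondin (382 to 831 FPKM, 1.12), with Eln, elastin (1.21 to 3.58 FPKM, 1.05). Wisp1 and Nov, which belong to the same CCN family as Cyr61 and Ctgf, went the other way, from 3.81 to 1.27 FPKM (-1.08) and from 10.2 to 3.96 FPKM (-1.17). Fn1, fibronectin, was at 259 and 317 FPKM (0.29). Among 24 kept proteases and inhibitors of the matrix, Plat, a plasminogen activator, fell (94.2 to 44.4 FPKM, -1.07), and so did Mmp3, a stromelysin (28.4 to 13.3 FPKM, -1.04).

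Transcription factors of mesenchymal cells had a median of -0.26 over 20 kept genes, of which 2 fell and 0 rose. Beside Snai2 the fallen gene was Osr1, a zinc finger factor of connective tissue (13.6 to 5.81 FPKM, -1.11). Twist1 was at 35.5 and 30.3 FPKM (-0.23) and Prrx1 at 52.8 and 56.4 FPKM (0.09). Of 25 kept Hox genes, which record position along the body, 20 were lower and 0 past 2-fold, with a median of -0.32. Fibroblast surface genes had a median of -0.19 over 19 genes. Dpp4 (0.58 to 4.63 FPKM, 1.83) and Dpp6 (1.47 to 9.43 FPKM, 2.08) rose, and Cd34 was at 89.5 and 70.7 FPKM (-0.34).

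Ligand and receptor lists were mixed. Of 16 kept genes of the IGF axis 3 rose, Igfbp2, Stc1 (16.2 to 38.9 FPKM, 1.22) and Stc2 (7.09 to 24.0 FPKM, 1.63), and the median was -0.12. Of 17 kept Wnt genes 4 rose (median 0.20), all inhibitors of the pathway, the extracellular Notum (2.49 to 13.2 FPKM, 2.03) and Sfrp1 (2.66 to 12.6 FPKM, 1.90) and the intracellular genes Nkd1 (0.62 to 3.52 FPKM, 1.48) and Nkd2 (5.27 to 13.9 FPKM, 1.25). The TGF-beta list had a median of -0.01, and Tgfb1 was at 28.8 and 15.6 FPKM (-0.84). In the BMP list (median -0.17) Id3, an inhibitor of helix-loop-helix factors, rose from 126 to 294 FPKM (1.21) while Id1 was at 79.6 and 66.4 FPKM (-0.26). In the list of FGF, HGF, EGF and related ligands 4 of 19 kept genes rose (median 0.20), Areg, Ereg, Vegfa and Fgf21, a stress-induced hormone (0.51 to 2.56 FPKM, 1.24).

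Histone H3.3, the subject of the study, is encoded by H3f3a and H3f3b. They were at 87.3 and 157 FPKM (0.84) and at 179 and 217 FPKM (0.27). Its chaperone Hira was at 20.5 and 22.7 FPKM (0.14), and Asf1b, a chaperone of replicating cells, fell from 23.1 to 10.1 FPKM (-1.12), 1 fall and 0 rises among 11 genes (median 0.18). Among heat shock genes 1 of 16 rose and 2 fell (median -0.23), Hspb1 from 158 to 332 FPKM (1.06), and Hspa4l and Hspa1b from 8.08 to 3.21 FPKM (-1.11) and from 8.93 to 3.62 FPKM (-1.11).

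Markers of other lineages were low or mixed. Of 16 granzyme and mast cell genes 3 were kept. Mcpt8 and Gzme fell, the latter from 23.3 to 9.28 FPKM (-1.24), and Cma1 was at 0.51 and 0.31 FPKM. Of 12 muscle genes 6 were kept, 3 rose and 0 fell (median 1.01). Actc1, cardiac actin (0.97 to 13.5 FPKM, 2.88), and Tnnt2, cardiac troponin T (0.77 to 8.14 FPKM, 2.37), were kept through D9T+ only, the skeletal actin gene Acta1 was at 18.5 and 13.9 FPKM (-0.39), and Myod1 and Myog were at 0.38 FPKM or less in both libraries. Of 13 neural genes 7 were kept, 2 rose and 0 fell (median 0.35). Neither the endothelial gene Pecam1 (0.23 and 0.41 FPKM) nor the glial gene Sox10 (0.01 and 0.06 FPKM) reached 1 FPKM. Fabp4, an adipocyte lipid carrier, rose from 38.4 to 97.5 FPKM (1.32), with Adipoq at 0 and 0.18 FPKM. Of 13 chondrocyte and osteoblast genes 5 were kept, of which 3 were lower, with a median of -0.52. The 1 that rose was Alpl, an alkaline phosphatase that pluripotent cells also make (1.55 to 14.4 FPKM, 2.59), while Sox9, a factor of cartilage, was at 2.47 and 1.42 FPKM (-0.52). Of 12 trophoblast genes 6 were kept, and 1 rose, Tfap2c (0.26 to 3.73 FPKM, 1.91), with a median of -0.09. Of 12 extraembryonic endoderm genes 3 were kept, 1 of which fell, and the median was -0.66. Cdx2, Tpbpa and Sox17 of these lists were listed at 0 in both libraries.

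To see what was shared with cells that had lost Thy-1, the same step from D6T- to D9T- was set beside it, a comparison that shares no library with the first. There 717 of 11923 kept genes rose (6.01%) and 161 fell (1.35%), and the median difference over kept genes was -0.0005. Across 12533 genes kept in either fraction the differences correlated with a Spearman rho of 0.592 and a Pearson r of 0.639, given as a description over genes of 4 libraries. Of the 698 genes that rose in Thy-1+ cells 683 were higher by any amount in D9T- than in D6T-, and 405 rose at least 2-fold there, 58.0% of the Thy-1+ and 56.5% of the Thy-1- rises. The overlap of falls was 37 genes, 18.97% and 22.98% of the respective lists.

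For 49 of the 698 genes the Thy-1- difference was 0.25 or lower, among them Tgtp1, at 0.15 and 0.03 FPKM in D6T- and D9T- (-0.16). Above that limit but within 2-fold in Thy-1- cells were Fosb at 26.8 and 32.2 FPKM (0.26), Nr4a2 at 3.37 and 4.38 FPKM (0.30) and Lif at 8.75 and 14.6 FPKM (0.68). The median of the immediate early list was 0.69 in Thy-1- cells against 1.25, and 17 of its 23 genes had the higher difference in Thy-1+ cells. For the 4 factors the medians were 0.16 and 1.18. Pou5f1 was at 1935 and 2769 FPKM in D6T- and D9T- (0.52), Klf4 at 587 and 658 FPKM (0.17), Myc at 542 and 605 FPKM (0.16) and Sox2 at 436 and 258 FPKM (-0.75). On day 6 each factor was thus 2-fold or more above Thy-1+ cells, and on day 9 Sox2 was below them.

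Others rose further in Thy-1- cells. Dppa5a went from 2.43 to 84.3 FPKM (4.64) and Nanog from 0.73 to 18.5 FPKM (3.49). Over the 20 pluripotency genes kept in Thy-1+ cells, however, the median was 1.27 in Thy-1- cells against 1.35. Of these genes 7 had the higher difference in Thy-1+ cells, among them Gdf3, Tdh and Sall4 (2.16, 0.74 and 1.08 in Thy-1- cells). Over the genes kept in Thy-1+ cells the epithelial median was 1.29 in Thy-1- cells against 0.99, the interferon antiviral median 1.15 against 0.85 and the complement and acute phase median 1.71 against 1.38. Mitosis genes were lower in both, with medians of -0.42 and -0.65. None of these differences between the fractions could be tested with 1 library in each condition.

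Among the genes that fell in Thy-1+ cells, 161 of 195 were lower by any amount in D9T- and the median Thy-1- difference was -0.45. Of the 2 fallen contractile genes, Tagln was at 10.4 and 11.9 FPKM in D6T- and D9T- (0.18) and Tpm2 at 24.5 and 17.6 FPKM (-0.45). Acta2, which stayed within 2-fold in Thy-1+ cells, rose from 14.2 to 40.2 FPKM in Thy-1- cells (1.44) while it was at 166 and 92.2 FPKM in Thy-1+ cells. The median of the whole contractile list was 0.17 against -0.54. The levels in Thy-1+ cells stayed above those in Thy-1- cells for Acta2 on both days. Snai2, already at 0.74 FPKM in D6T-, was at 0.36 FPKM in D9T-.

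**Figure D5:**
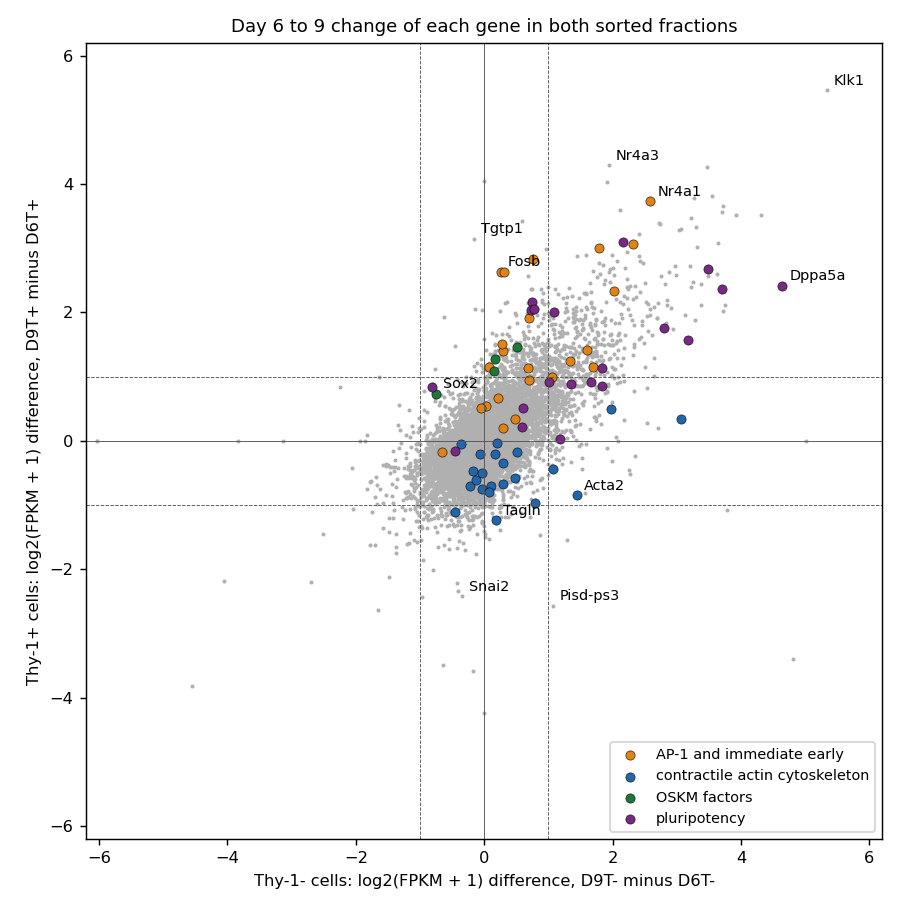
Day 6 to 9 difference of log2(FPKM + 1) in Thy-1+ cells (vertical) against Thy-1- cells (horizontal) for genes of at least 1 FPKM in any of the 4 libraries, with 7 genes beyond 6.2 not drawn, and with members of 4 lists coloured. Immediate early genes such as Fosb lie left of the diagonal, whereas contractile genes lie mostly below 0 on the vertical axis and around 0 on the horizontal one.

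Each gene was also placed by the library that held its highest level. Since direction was set by D6T+ and D9T+, a risen gene could not be highest in D6T+ nor a fallen one in D9T+, and these counts are a description. Of the 698 risen genes 146 had their highest level of the 12 libraries in D9T+, 129 in D16S-, 102 in D9T-, 73 in D12S+ and 62 in D12S-. A further 64 were highest in mESCs, 46 in iPSCs, 45 in D16S+, 19 in D0, 8 in D6T- and 4 in D3. Of the 195 fallen genes 79 were highest in D0, 39 in D6T+, 32 in D3, 19 in mESCs and 15 in D16S+. The same counts were not made over all kept genes, so whether these shares differ from theirs is not known.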

How the data were processed

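Per the labels, TruSeq stranded mRNA libraries were prepared (the study's methods name a TruSeq kit without strand). The authors mapped the reads with STAR to mm9 and, per the submitters' notes, estimated expression with Cuffdiff. Reads with more than 2 mismatches or more than 1 locus were removed, which lowers genes with near-identical copies and pseudogenes. The deposited values are FPKM for 24098 genes in 12 libraries, with an interval and a status word per value. Versions, annotation and library scaling are not given in the sources used here. With 1 library per condition the intervals are modelled and hold no measured biological variation. Absolute depth is unknown, and depth between libraries was estimated from the steps of values under 0.5 FPKM.

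Columns of D6T+ and D9T+ were compared as log2(FPKM + 1) over genes of at least 1 FPKM in either, and a change was called at 2-fold, with no test. Of the 12090 kept genes 6 had a failed or skipped estimate in either library, of which 0 rose and 1 fell. The 45 gene lists hold 1011 entries, and 2 were not found in the table. Lists were described by their median and counts. The comparison, the members and the lists were chosen with earlier results of these data known, so their directions are not independent support.

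Genes were named by a rule: the 12 largest changes per direction among genes of at least 5 FPKM in either library and a locus of at least 500 bases, without small RNAs, symbols of Gm and a digit or of Rik. Added were defining genes of the lists, up to 6 members per list and direction past 2-fold, and genes with opposite 2-fold changes in the fractions. A further few are named as chosen after their values were seen, and some genes named by the rule are not reported here. Positions are from GENCODE M1 (mm9, 1-based), matched for 251 of 258 named genes. Promoter windows are from RefSeq (GRCm38.p6), matched by symbol for 9108 kept genes, and coordinates of the builds were not mixed. Motifs were sought on both strands. None of the 6 motifs contains another. Alternatives were another pseudocount, filter, scaling, fold threshold and the Cuffdiff intervals. Functions were tested on simulated data. Python 3.11.15, numpy 2.4.6, pandas 2.3.3 and matplotlib 3.10.9 were used.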

Additional observations from a re-analysis of the deposited data

Results flagged for a closer look

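Medians of 3 gene lists lay on opposite sides of 0 in the Thy-1+ and the Thy-1- cells and at least 0.1 from 0 in both. The TGF-beta, matrix protease, histone H3.3 and trophoblast lists also had medians on opposite sides of 0, but not both that far from it. With 1 library in each of the 4 conditions the difference was not tested in any of them. The contractile actin list, genes of the cytoskeleton of activated fibroblasts, had a median day 6 to 9 difference of -0.54 in Thy-1+ cells and 0.17 in Thy-1- cells for the same 22 genes, and 1 of the 22 had the higher difference in Thy-1+ cells. The fibroblast surface and receptor list had medians of -0.19 and 0.15. Cd34 was at 89.5 and 70.7 FPKM in D6T+ and D9T+ but at 34.9 and 57.0 FPKM in D6T- and D9T-. The IGF axis list had medians of -0.12 and 0.23. The imprinted neighbours H19 and Igf2, named here after their values were seen, were at 199 and 169 FPKM and at 27.4 and 25.3 FPKM in Thy-1+ cells, and at 27.0 and 142 FPKM and at 5.13 and 21.99 FPKM in Thy-1- cells.

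The pseudogene Pisd-ps3 differed by -2.57 in Thy-1+ cells and by 1.06 in Thy-1- cells, the opposite way and past 2-fold in both, and this too was not tested. Its levels were 29.4 and 4.12 FPKM in D6T+ and D9T+ and 12.8 and 27.9 FPKM in D6T- and D9T-. D9T+ was its lowest library, and reads that it shares with its parent gene had been removed, so its level is uncertain.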

How the results depend on the processing

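No paired analysis was possible because each condition had 1 library and the labels carry no replicate numbers. The counts past 2-fold stayed within 1.5 times with at least 5 FPKM, under both scalings and, chosen after seeing the data, without failed estimates. Leaving out the filter could not change them. With a pseudocount of 1, a gene past 2-fold always has at least 1 FPKM in the higher library. With a pseudocount of 0.1 the falls became 409 in Thy-1+ and 335 in Thy-1- cells, as small changes of low genes then count. At 4-fold 144 genes rose and 16 fell in Thy-1+ cells and 136 and 16 in Thy-1- cells, and at 1.5-fold 1452 and 1000, and 1499 and 822. Requiring Cuffdiff intervals that lie apart left 0 and 0 genes, and 1 and 0 genes. Of the list medians under other settings, with each list counted once per setting, 215 moved little, 7 moved and 2 reversed. In all 4 changed sign. These were the leukocyte, muscle and neural medians (0.57, 1.01 and 0.35 as reported) and the TGF-beta median. The last went from -0.01 to 0.05 under the median of ratios. Pluripotency became 2.38 with a pseudocount of 0.1 and 2.05 at 5 FPKM, and epithelial genes 1.82 and 1.69. Without a filter, members near 0 enter the lists, and the medians became -0.014 for leukocyte, -0.15 for muscle, -0.0059 for extraembryonic endoderm and 0 for granzyme and mast cell genes. At 5 FPKM the neural median became -0.42, and 1 list had no gene left. Causes were not tested. Of 708 values of named genes under other settings 28 moved, all by the smaller pseudocount, and 8 changed sign under a scaling, in genes whose difference was at most 0.05. Scaling to equal totals shifted all differences by -0.05 and the median of ratios by 0.06.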
